A study of Homo sapiens with 9 samples.

Results

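APE1-KO cells were compared with Control-KO cells across all 13052 genes of the authors' deposited table of that comparison, which rests on 3 libraries per group, 6 of the 9 in the series. The members are all genes of that table, of which 11317 had a mean abundance of at least 1 log2 CPM, where CPM is the count of a gene scaled to the total of its library, and are called expressed here. The cells were MCF10A, a non-transformed human mammary epithelial line. Control-KO cells express Cas9 and are labelled WT for genotype, APE1-KO cells are a knockout derivative of them labelled APE1-knockout, and the other group of 3 libraries, XRCC1-KO, is labelled XRCC1-knockout. All groups were grown with horse serum, epidermal growth factor, cholera toxin, insulin and hydrocortisone. Poly(A) RNA was sequenced from stranded libraries. The sources used here do not give the guide, the edited allele or whether a group is 1 clone, a pool or several cultures. The spread behind the p-values is that between the deposited libraries and may be technical. No values per library were analysed here. Each gene is given by its log2 fold change (APE1-KO over Control-KO) with a 95% interval, and the depth of each library is unknown.

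APE1, encoded by APEX1, cuts the DNA backbone at abasic sites, which arise when glycosylases remove damaged bases or when bases are lost spontaneously. The gap is then filled by a polymerase and sealed by a ligase, the steps of base excision repair. The same protein, also called Ref-1, has a redox function through which it keeps transcription factors such as AP-1, NF-kB, HIF1A, STAT3 and p53 in a DNA-binding state. The deposited comparison therefore bears both on repair genes and on genes tied to those factors.

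The sequences below are start regions of genes named in the results. Each runs from 250 bases before to 50 bases after the RefSeq gene start, on build GRCh38.p14. APEX1 (chr14:20454976-20455275, plus strand) is shown because it was the gene that passed the test, with its 3 copies of the E-box CACGTG, the letters read by MYC, USF and related factors, in capitals. OSGEP (chr14:20454763-20455062, minus strand), a tRNA-modifying enzyme gene, is transcribed away from APEX1 on the opposite strand, and the upstream ends of both windows share 87 bases. CXCL1 (chr4:73869143-73869442, plus strand) and CXCL8 (chr4:73740319-73740618, plus strand), neutrophil-attracting chemokines, had the smallest p-values among the NF-kB targets, and their kappaB letters GGAATTTCC are in capitals.
APEX1: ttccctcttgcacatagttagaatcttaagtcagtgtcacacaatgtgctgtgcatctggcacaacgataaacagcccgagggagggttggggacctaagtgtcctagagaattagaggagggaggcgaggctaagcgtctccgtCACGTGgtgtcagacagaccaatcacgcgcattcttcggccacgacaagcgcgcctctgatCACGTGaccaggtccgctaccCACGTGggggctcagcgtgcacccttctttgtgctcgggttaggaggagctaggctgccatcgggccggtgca
OSGEP: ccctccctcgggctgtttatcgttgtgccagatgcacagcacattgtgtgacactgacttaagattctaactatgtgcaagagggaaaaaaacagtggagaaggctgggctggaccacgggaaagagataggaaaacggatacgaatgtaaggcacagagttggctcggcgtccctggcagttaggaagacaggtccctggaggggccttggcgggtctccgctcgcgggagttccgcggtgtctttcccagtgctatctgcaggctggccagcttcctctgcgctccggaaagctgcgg
CXCL1: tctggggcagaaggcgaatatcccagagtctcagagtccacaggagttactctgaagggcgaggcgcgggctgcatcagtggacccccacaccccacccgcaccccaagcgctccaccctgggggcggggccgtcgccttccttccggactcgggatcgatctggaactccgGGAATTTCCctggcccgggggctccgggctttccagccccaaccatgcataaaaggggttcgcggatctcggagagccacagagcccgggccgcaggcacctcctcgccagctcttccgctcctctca
CXCL8: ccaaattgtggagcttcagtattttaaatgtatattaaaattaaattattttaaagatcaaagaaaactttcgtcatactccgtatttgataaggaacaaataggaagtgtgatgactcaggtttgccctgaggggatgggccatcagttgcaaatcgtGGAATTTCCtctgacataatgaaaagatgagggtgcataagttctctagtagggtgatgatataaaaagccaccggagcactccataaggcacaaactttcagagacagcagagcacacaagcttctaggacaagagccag

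CACGTG, which reads the same on both strands, was found in 7.26% of the 35116 start regions of the same length, and at least 3 copies stood in 33 of them (0.094%). In APEX1 the copies begin at positions 146, 207 and 228 of the window, counted from 1 at its 5′ end, and the OSGEP window holds 0. The hg19 models of these genes lie 85 bases apart, closer than their RefSeq starts. The count for OSGEP therefore depends on the start used, and does not show that its start region lacks these letters. GGAATTTCC, searched on both strands, stood in 162 regions (0.461%), at position 173 in CXCL1 and 160 in CXCL8. A match describes the letters only. MYC itself stood at -0.05 (interval -0.25 to 0.16) in the authors' deposited table of APE1-KO, and this gene was looked up after its value was seen.

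APEX1 transcripts fell in APE1-KO cells, and no other gene passed the test. The gene, ENSG00000100823.7, lies on the plus strand of chromosome 14 at 20923350 to 20925927 (hg19). APEX1 stood at -1.50 in the authors' deposited table (interval -1.67 to -1.33, F = 356, p = 5.5e-12, adjusted p = 7.17e-08 by the authors' F test with Benjamini-Hochberg adjustment). This leaves 0.354-fold of the control level (interval 0.314 to 0.398), so transcripts of the targeted gene were still read in APE1-KO libraries. It was 1 of 13052 genes called, or 0.00766%. For each of the other 13051 genes the adjusted p in the authors' deposited table was 1. The paralog APEX2, which also cuts abasic sites, stood at 0.02 (interval -0.13 to 0.17) in that deposited table.

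The genes beside APEX1 did not pass the test. OSGEP, whose hg19 gene model lies 85 bases from that of APEX1, stood at -0.14 in the authors' deposited table (interval -0.33 to 0.04, p = 0.123). PIP4P1, a phosphoinositide phosphatase gene whose 3′ end overlaps that of APEX1 on the other strand by 50 bases, stood at 0.10 there (interval -0.15 to 0.36). Further out, the deposited table gave 0.08 for the purine salvage enzyme gene PNP and 0.13 for TEP1, a telomerase-associated protein. PARP2, a polymerase that marks DNA breaks with ADP-ribose, stood at -0.06 in the same deposited table, CCNB1IP1, a ubiquitin ligase, at -0.12, and TTC5, a p53 cofactor, at -0.09. Of the 11 other genes within 500 kb, 0 had an unadjusted p under 0.05, and of the 20 within 1000 kb, 0 did, the smallest p being 0.0876. Across all genes 1.45% had such a p. RNASE4 and ANG, ribonuclease genes that overlap each other, had wide intervals in the authors' deposited table, -0.87 to 1.42 and -0.58 to 0.93. Across chromosome 14 the 382 other expressed genes had a median of 0.00.

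**Figure D1:**
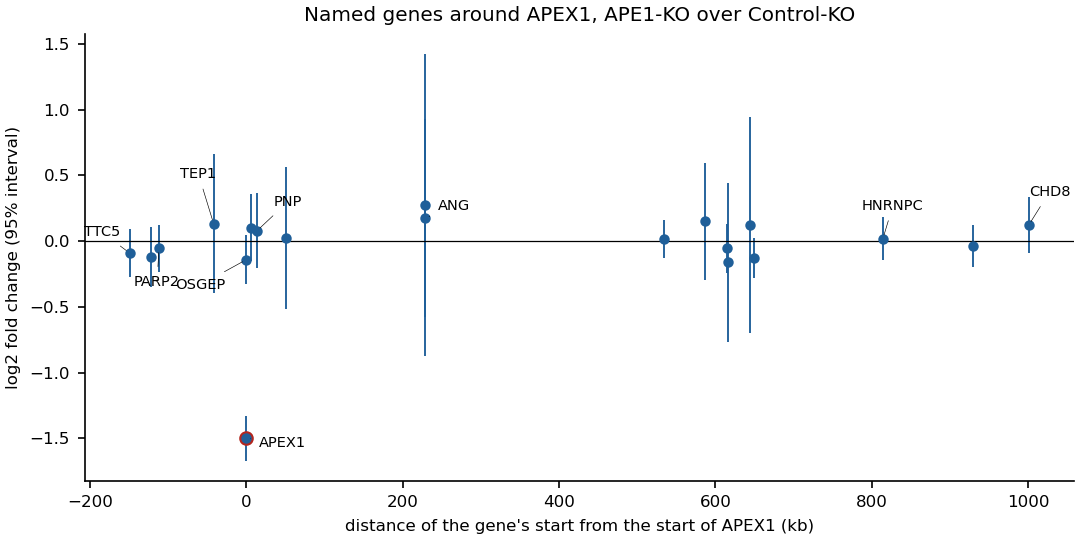
Log2 fold change with 95% interval (vertical axis) of the genes with a symbol within 1000 kb of APEX1, against the distance of their start from that of APEX1 in kb (horizontal axis). APEX1 (red) lies at -1.50, and the intervals of the other genes include 0.

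Outside APEX1 the transcriptome of APE1-KO cells lay close to that of control cells. Of all 13052 genes, 6465 (49.5%) lay above 0, with a median of -0.00. Among expressed genes the quartiles lay at -0.05 and 0.05 in the authors' deposited table, against -0.10 and 0.09 in their XRCC1-KO table. The 95% interval stayed inside 1.5-fold in either direction for 10172 of the 11233 expressed genes with a standard error (90.6%), and inside 2-fold for 11080 (98.6%). The estimate itself lay beyond 1.5-fold for 34 expressed genes and beyond 2-fold for 8. Precision followed abundance: the median distance from the estimate to the end of its interval was 0.90 for the 1735 genes under 1 log2 CPM, 0.26 for the 3533 genes from 3 to 5, and 0.19 for the 1654 genes of at least 7.

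**Figure D2:**
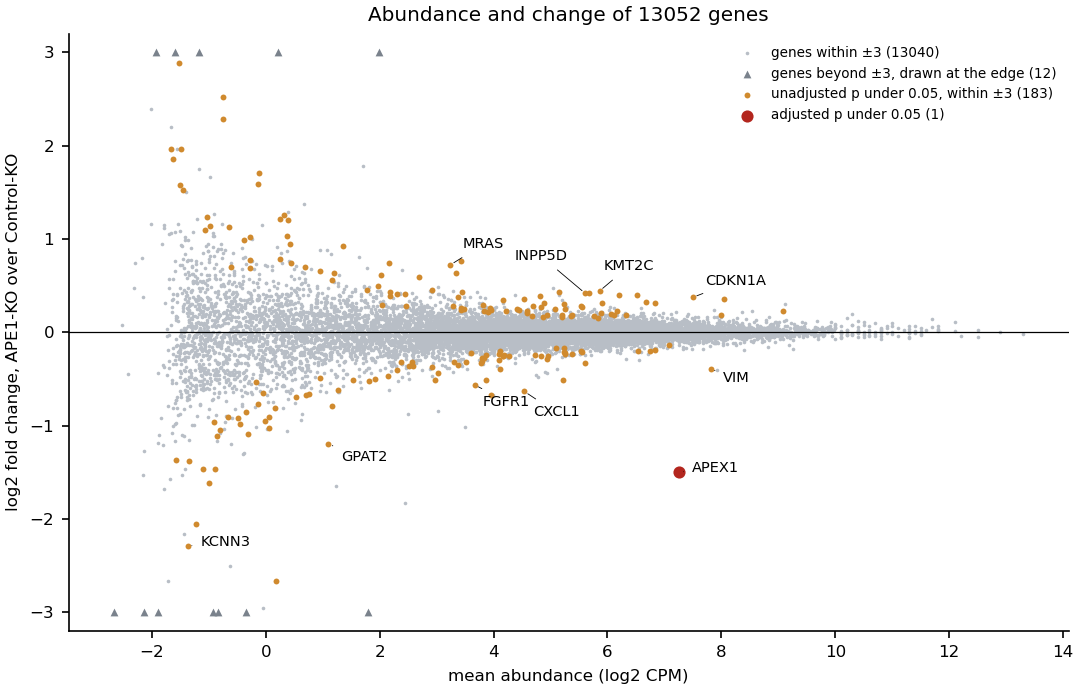
Log2 fold change of APE1-KO over Control-KO (vertical axis) against mean abundance in log2 CPM (horizontal axis), 1 point per gene. APEX1 (red) stands alone at -1.50 among abundant genes, while genes with an unadjusted p under 0.05 (orange) lie far from 0 only at low abundance.

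Small p-values were fewer than an even spread would give. An unadjusted p under 0.05 was reached by 189 genes (1.45%), 101 of them higher (0.774%) and 88 lower (0.674%). An even spread of p-values would put 652.6 genes in that bin. In the XRCC1-KO table, which uses the same control libraries, 778 genes had such a p. Of the 189 genes, 60 were among the 1735 under 1 log2 CPM. Each p-value was also turned into a z value, its normal score with the sign of the estimate. These z values had a robust SD of 0.673 over expressed genes, where a standard normal has 1. By abundance over all genes, that SD ranged from 0.877 under 1 log2 CPM to 0.559 at 7 and above. The cause of this narrow spread was not tested.

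**Figure D3:**
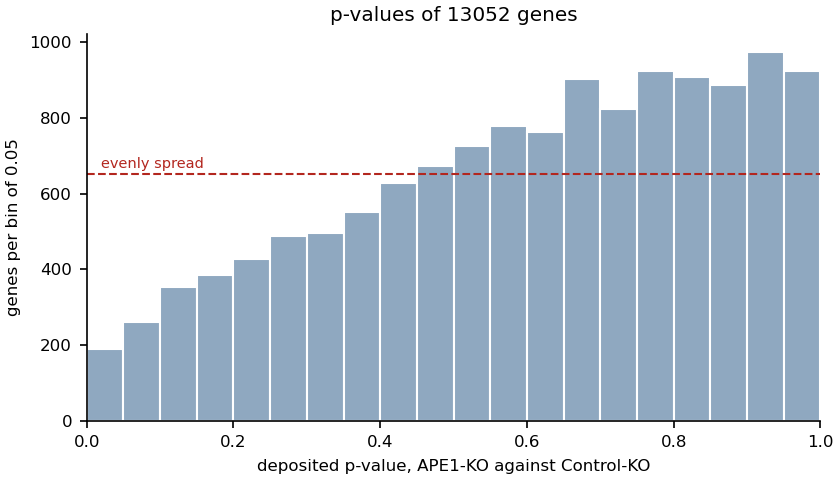
Number of genes (vertical axis) in each bin of 0.05 of the deposited p-value (horizontal axis), with the even level of 652.6 as a dashed line. The first bin holds 189 genes and the bin from 0.9 holds 973.

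The genes with the smallest p-values, which all missed the threshold, are given next as estimates. Among those with a higher estimate, KMT2C, a histone H3 lysine 4 methyltransferase, stood at 0.44 in the authors' deposited table (interval 0.24 to 0.65, p = 3.57e-04, adjusted p = 1). MRAS, a RAS-related GTPase that acts with SHOC2 on RAF, stood at 0.72 in the authors' deposited table (interval 0.34 to 1.11, p = 0.00117). INPP5D, which encodes the inositol phosphatase SHIP1, stood at 0.42 in the authors' deposited table (interval 0.16 to 0.67, p = 0.00302). The authors' deposited table gave 0.38 for CDKN1A, the cyclin-dependent kinase inhibitor p21 (interval 0.14 to 0.61, p = 0.00453). RAB30, a Golgi GTPase, stood at 0.74 (interval 0.27 to 1.21) and SULF2, an extracellular heparan sulfatase, at 0.42 (interval 0.12 to 0.73) in the authors' deposited table.

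The other higher genes of this rank had estimates from 0.18 to 0.43. TERF1, the shelterin protein that binds double-stranded telomere repeats, stood at 0.26 in the authors' deposited table (interval 0.08 to 0.43, p = 0.00774), and it has 5 named pseudogenes that could share its reads. NFYC, a subunit of the CCAAT-binding factor NF-Y, stood at 0.30, and HEATR5A, a protein of endosomal transport, at 0.43 in the deposited table. THUMPD3, a tRNA methyltransferase, stood at 0.27 and HTATSF1, a splicing cofactor, at 0.20 in the same deposited table, with 1 and 2 named pseudogenes. MSMO1, a methylsterol oxidase, stood at 0.18 (interval 0.04 to 0.32), ATG4A, an autophagy protease, at 0.26 and the membrane protein gene TM7SF3 at 0.32 in the authors' deposited table. SFI1, a centrosomal protein gene that overlaps other genes, stood at 0.25 there.

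Among genes with a lower estimate, GPAT2, a glycerol-3-phosphate acyltransferase otherwise known from testis, stood at -1.20 in the authors' deposited table (interval -1.68 to -0.72, p = 4.7e-04). It was scarce, at 1.10 log2 CPM, and has 2 named pseudogenes that could share its reads. FGFR1, a fibroblast growth factor receptor, stood at -0.56 (interval -0.86 to -0.27, p = 9.4e-04) in the authors' deposited table. VIM, the intermediate filament vimentin, stood at -0.40 (interval -0.64 to -0.15, p = 0.0037) in the authors' deposited table. It was the most abundant of the 14 lower genes other than APEX1 named by p-value, at 7.81 log2 CPM. VIM overlaps its antisense gene VIM-AS1, FGFR1 overlaps LETM2 and CDKN1A overlaps DINOL on the other strand, and the sources used here do not say whether strand was used in quantification, so these values are uncertain to that extent. COL22A1, a collagen of tissue junctions, stood at -0.79 in the deposited table (interval -1.35 to -0.23) at 1.17 log2 CPM. CXCL1 stood at -0.63 (interval -1.11 to -0.16, p = 0.0118), and IL15RA, the interleukin 15 receptor alpha chain, at -0.51 (interval -0.90 to -0.12) in the authors' deposited table.

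The remaining lower genes of this rank had narrow intervals and small estimates. MTA1, a subunit of the NuRD chromatin complex, stood at -0.19 (interval -0.33 to -0.06) and ARAP1, a GTPase-activating protein, at -0.20 (interval -0.34 to -0.06) in the authors' deposited table. POGLUT2, an O-glucosyltransferase of the endoplasmic reticulum, stood at -0.28 and the organic anion transporter gene SLCO4A1 at -0.24 in that deposited table. SH3RF3, a ubiquitin ligase, stood at -0.30, the signalling adaptor gene SH2B1 at -0.23, OGFOD3 at -0.25 and the myotubularin-related gene MTMR11 at -0.31 in the authors' deposited table. Without APEX1, the 14 lower genes ranged from -1.20 to -0.19 with a median of -0.30, and the 15 higher genes from 0.18 to 0.74 with a median of 0.32.

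**Figure D4:**
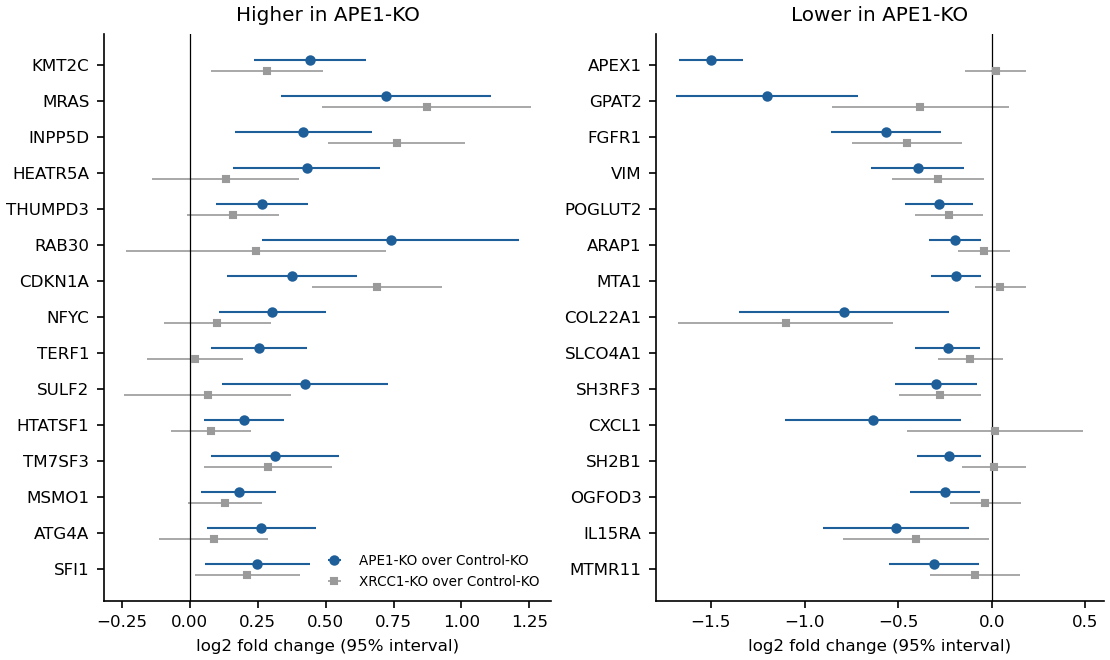
Log2 fold change with 95% interval (horizontal axis) of the 15 expressed genes with the smallest p-value in each direction, in APE1-KO (blue) and XRCC1-KO (grey) over the same control libraries. APEX1 lies at -1.50 in APE1-KO and 0.02 in XRCC1-KO, and the other genes of the panels have adjusted p of 1 in APE1-KO.

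Several of the largest estimates belonged to loci whose transcripts overlap or are nearly identical, so that reads could be split between them, and these are uncertain. SLX1A, a structure-specific nuclease subunit, stood at -10.20 in the authors' deposited table with a standard error of 4.32 (p = 0.0374), while its near-identical copy SLX1B stood at 0.26. TMEFF1 stood at -1.65 and the readthrough gene MSANTD3-TMEFF1 at 1.78 in the deposited table. DNAJC25 stood at 0.77 (p = 0.0451) and DNAJC25-GNG10 at -1.02 in the authors' deposited table. AMIGO3 stood at 4.22 with an interval from -2.07 to 10.51, and the overlapping GMPPB at -0.02 in the authors' deposited table. EIF3CL at -0.88 and EIF3C at 0.01, NEDD8-MDP1 at 0.89 and NEDD8 at 0.03, and FAM47E-STBD1 at 0.84 and STBD1 at 0.01 are further such pairs in the deposited table. Outside such pairs, the largest higher estimates of expressed genes were ACOX2, a peroxisomal oxidase of branched-chain fats and bile acid precursors, at 0.92 (interval 0.16 to 1.68) and PLCB1, a phospholipase C, at 0.81 (interval -0.19 to 1.81) in the authors' deposited table.

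Base excision repair genes other than APEX1 lay near 0. Of the 11 DNA glycosylases, which remove damaged bases ahead of APE1, 6 lay above 0 and 5 below, with a median of 0.03. NEIL1, which removes oxidised bases, stood lowest at -0.45 in the authors' deposited table (interval -0.93 to 0.04, p = 0.0695). OGG1, which removes oxidised guanine, stood at -0.13 there and SMUG1, which removes uracil, at 0.09. Of the 13 genes from incision to ligation, the 12 others lay between -0.13 for POLD1, the catalytic subunit of polymerase delta, and 0.04 for LIG3, a DNA ligase. FEN1, which trims flaps in long-patch repair, stood at -0.07 in the authors' deposited table, LIG1 at 0.04 and the gap-filling polymerase gene POLB at 0.01 (interval -0.24 to 0.26). The 13 genes of single-strand break repair had a median of -0.03, with 5 above 0, and XRCC1 had a value of 0.01 (interval -0.23 to 0.24) for APE1-KO in the authors' deposited table. In the libraries labelled XRCC1-KO, XRCC1 itself stood at 0.14 (p = 0.235) in the authors' deposited table, so its transcript level does not check that label, and each XRCC1-KO value given here rests on the label. APTX, which clears AMP from stalled ligation ends, stood at -0.07 and PARP1, the main break sensor, at 0.00 in that deposited table.

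Genes of the other repair routes were likewise balanced. ERCC1, a nuclease subunit of nucleotide excision repair, stood at 0.23 in the authors' deposited table (interval 0.02 to 0.44, p = 0.0312). It was the 1 of 17 members of mismatch and nucleotide excision repair at an unadjusted p under 0.05 (higher, as were 0.774% of all genes). Their median was 0.03, with 11 above 0. The 26 genes of homologous recombination and the Fanconi anaemia pathway had a median of -0.03, with 11 above 0. RBBP8, which encodes the end-resection factor CtIP, stood at -0.13 (p = 0.0921) in the authors' deposited table. End joining (10 genes, median -0.04), checkpoint signalling (17, 0.00) and the nucleotide pool (12, -0.01) had 0 members at an unadjusted p under 0.05. With 1.45% of all genes at that level, 0 in such short lists says little. In the shelterin and telomere list TERF1 was the 1 of 15 with such a p (higher, as were 0.774% of all genes). The median was -0.04, and CTC1, of the CST complex, stood at -0.32 (interval -0.66 to 0.03) in the deposited table.

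Targets of p53 had mostly positive estimates, all small. Of 33 measured, 29 lay above 0, where 49.5% of all genes did, with a median of 0.07 (1.05-fold), and 4 had an unadjusted p under 0.05, all higher, as had 0.774% of all genes. These were CDKN1A, ZMAT3, an RNA-binding splicing regulator, at 0.32 (interval 0.06 to 0.58), TIGAR, a phosphatase that restrains glycolysis, at 0.18, and FBXO22, a ubiquitin ligase subunit, at 0.18, in the authors' deposited table. None passed adjusted p 0.05. TP53I3, an oxidoreductase, stood at 0.21 (p = 0.055) and RPS27L, a ribosomal protein paralog, at 0.19 (p = 0.0634) in the authors' deposited table, both named after their values were seen. In XRCC1-KO, over the same control libraries, the list had a median of 0.23.

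NF-kB targets and subunits had mostly negative estimates. Of 13 measured targets, 10 lay below 0, where 50.5% of all genes did, with a median of -0.14 (0.909-fold). At an unadjusted p under 0.05, 2 were lower, a level reached downward by 0.674% of all genes. These were CXCL1 and CXCL8, the latter at -0.67 in the authors' deposited table (interval -1.24 to -0.09, p = 0.0256). The cytokine gene IL1B stood at -0.48 (interval -1.10 to 0.14), IRAK2, a kinase of interleukin 1 signalling, at -0.32, and the chemokine gene CXCL2 at -0.36 in the deposited table. CXCL3, also of the GRO chemokines, went the other way at 0.43, but at -0.90 log2 CPM its interval ran from -0.73 to 1.59 in that deposited table. SOD2, the mitochondrial superoxide dismutase, stood at -0.11, and the survival factor gene BIRC3 at -0.17 in the authors' deposited table. In XRCC1-KO the 13 targets had a median of 0.05.

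Of the 12 targets with a RefSeq start region, 5 held the GGAATTTCC letters shown for CXCL1 and CXCL8, namely these with CXCL2, CXCL3 and the adhesion receptor gene ICAM1. Those 5 had a median of -0.36 with 4 below 0, and the 7 without the letters had a median of -0.14 with 6 below 0. ICAM1 stood at -0.03 in the authors' deposited table (interval -0.33 to 0.27), so members with the letters ranged from -0.67 to 0.43.

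Among 14 NF-kB subunits and regulators, 12 lay below 0 (all genes 50.5%), with a median of -0.05 and 0 at an unadjusted p under 0.05 (all genes 1.45%). RELB, a subunit of the non-canonical arm, stood at -0.28 (interval -0.57 to 0.02) and NFKBIA, the inhibitor that NF-kB itself induces, at -0.13 in the authors' deposited table. The co-regulator gene BCL3 stood at -0.17, the inhibitory adaptor gene TNIP1 at -0.14 and RELA, the main activating subunit, at -0.02 there. The median in XRCC1-KO was 0.06.

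Lists tied to the other factors that APE1 is known to reduce, and lists of stress responses, had medians near 0. The AP-1 list includes factors themselves, such as FOS and JUNB, and the STAT3 list holds signalling genes. Neither is a set of target genes. AP-1 and immediate early genes had a median of -0.04, with 5 of 16 above 0. FOS stood at -0.27 (interval -0.61 to 0.08), JUNB at -0.12 and EGR1, an early growth response factor, at -0.12 in the authors' deposited table. Hypoxia and HIF1A targets had 10 of 20 above 0 and a median of -0.00, and NDRG1, a stress-induced gene, stood at -0.18 in the deposited table. Genes of STAT3 and IL6-family signalling had a median of -0.04, with 5 of 15 above 0. NRF2 antioxidant genes (19, median -0.01), thioredoxins and peroxiredoxins (22, -0.00), the unfolded protein response (19, -0.01) and chaperones (14, -0.04) had 0 members at an unadjusted p under 0.05. Among all genes 1.45% reached that level, so a count of 0 in lists this small says little. OSGIN1, an NRF2-induced growth inhibitor, stood at 0.39 (interval -0.02 to 0.79) in the authors' deposited table.

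Secretory factors of senescent cells had 22 of 30 members below 0 (all genes 50.5%), with a median of -0.09, and share CXCL1, CXCL8 and others with the NF-kB list. At an unadjusted p under 0.05, 3 were lower (all genes 0.674%) and 0 higher (all genes 0.774%): the chemokines and MMP9, a gelatinase, at -0.51 in the authors' deposited table (interval -1.01 to -0.01, p = 0.0457). IGFBP3, a binding protein for insulin-like growth factors, stood at -0.64 (interval -1.35 to 0.08), and INHBA, a subunit of activin A, at -0.67 (interval -1.50 to 0.15) in the authors' deposited table. GDF15, a stress cytokine that p53 also induces, had values of 0.28 for APE1-KO and 0.82 for XRCC1-KO in the authors' deposited tables. The same list had a median of 0.10 in XRCC1-KO.

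Interferon-stimulated genes were spread on both sides of 0, with 12 of 26 above it and a median of -0.02. USP18, which removes ISG15 from proteins and damps interferon signalling, stood at 0.28 in the authors' deposited table (interval 0.02 to 0.54, p = 0.0369). It was the 1 of 26 members at an unadjusted p under 0.05 (higher, as were 0.774% of all genes). ISG15 itself stood at -0.28 (interval -0.75 to 0.19), OAS1, an antiviral oligoadenylate synthetase, at -0.31 and DDX60, an antiviral helicase, at 0.35 in the deposited table. Nucleic acid sensing genes had 12 of 14 below 0 (all genes 50.5%) and a median of -0.03. TREX1, the cytosolic DNA exonuclease, stood at -0.21 (interval -0.67 to 0.24) and STING1 at -0.05 in the authors' deposited table. Class I antigen presentation had 14 of 15 below 0 (all genes 50.5%), a median of -0.05 and 0 at an unadjusted p under 0.05 (all genes 1.45%). HLA-B stood at -0.18 (interval -0.40 to 0.04) and HLA-C at -0.11 in that deposited table, and reads of such similar genes may be split between them. Class II genes were scarce, with 2 of 10 measured and neither expressed: HLA-DMA stood at 1.06 (interval -0.18 to 2.30) and CIITA, their transactivator, at 0.56 in the authors' deposited table.

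Cell cycle genes gave narrow intervals around 0. Mitosis and G2/M genes had 18 of 33 above 0 and a median of 0.00, ranging from -0.08 for NUF2, a kinetochore protein, to 0.11 for the proliferation marker MKI67, and all 33 intervals lay inside 1.5-fold. In XRCC1-KO the same list had a median of -0.16. Replication and G1/S genes had 12 of 33 above 0 and a median of -0.03, also with 33 of 33 intervals inside 1.5-fold. Among all expressed genes 90.6% of intervals did so, and interval width followed abundance. POLA2, a subunit of polymerase alpha, stood at 0.25 (p = 0.0818) and E2F1, an S-phase transcription factor, at -0.13 in the authors' deposited table. Of 14 lamina and chromatin genes, 4 lay above 0, at a median of -0.03, and LMNB1, a B-type lamin, stood at -0.07 (interval -0.22 to 0.08) in that deposited table.

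Chromatin genes were balanced around KMT2C. The other measured KMT2 and COMPASS genes included MEN1, the scaffold menin, at -0.11 and KMT2A at 0.14 (interval -0.27 to 0.54) in the authors' deposited table, and the 19 genes had a median of 0.01. The 31 other chromatin regulators had a median of 0.01, with 18 above 0. Histone genes with polyadenylated transcripts had a median of -0.02. H2BC4 stood at 0.79 (interval 0.19 to 1.39, p = 0.0135) at 0.24 log2 CPM, and H2AC6 at 0.34 in the authors' deposited table.

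In growth factor pathways single genes had small p-values in lists with medians near 0. FGFR1 was the 1 of 21 FGF receptor and feedback genes at an unadjusted p under 0.05 (lower, as were 0.674% of all genes). The list had a median of -0.04. SPRY2, a feedback inhibitor of the pathway, stood at -0.18 and DUSP4, a phosphatase of ERK, at 0.18 in the authors' deposited table. EGF receptor family genes had 10 of 13 below 0 (all genes 50.5%) and a median of -0.06. The ligand genes EREG, BTC and AREG stood at -0.27, -0.44 and -0.11 in that deposited table. RAS family genes had 16 of 20 above 0 (all genes 49.5%) and a median of 0.03. MRAS was at the top, and RALA, a regulator of exocytosis, stood at 0.10 in the deposited table. Phosphoinositide phosphatases and kinases had 15 of 27 above 0, and SYNJ2, a synaptojanin, followed INPP5D at 0.19 (p = 0.0529) in the authors' deposited table.

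WNT signalling genes had 20 of 28 below 0 (all genes 50.5%) and a median of -0.08. At an unadjusted p under 0.05, 2 were lower (all genes 0.674%) and 0 higher (all genes 0.774%). LEF1, a transcription factor of the pathway, stood at -0.32 (interval -0.58 to -0.07, p = 0.0172) in the authors' deposited table. AXIN2, a feedback inhibitor and common readout of the pathway, stood at -1.09 (interval -2.05 to -0.13, p = 0.0286) in the authors' deposited table at -0.31 log2 CPM, and 3.46% of genes under 1 log2 CPM had an unadjusted p under 0.05. The co-receptor gene LRP5 stood at -0.15 and the receptor gene FZD1 at -0.23 in the authors' deposited table. In XRCC1-KO the list had a median of -0.15. TGF-beta and activin genes (19, median -0.05), YAP and TEAD targets (22, 0.00) and Notch genes (17, -0.02) had 0 members at that level (all genes 1.45%).

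Epithelial markers of the line were present at near equal levels. All 11 were measured and expressed, with a median of -0.00. The basal keratin genes KRT5 and KRT14 stood at 0.01 and -0.13 in the authors' deposited table, E-cadherin (CDH1) at 0.01 and the basal transcription factor gene TP63 at -0.06. Keratins had 13 of 17 above 0 (all genes 49.5%) with a median of 0.06, and desmosome, hemidesmosome and laminin-332 genes 13 of 18 with a median of 0.04. Of 21 mesenchymal transition genes 2 were lower at an unadjusted p under 0.05 (all genes 0.674%), VIM and LOXL2, a lysyl oxidase, at -0.33 (interval -0.62 to -0.04) in the deposited table, while the list had a median of -0.01. FN1, fibronectin, stood at -0.04 and CDH2, N-cadherin, at -0.14 in that deposited table. Collagens and matrix genes had 17 of 27 below 0 and a median of -0.06, and COL6A1 stood at -0.20 and COL6A2 at -0.32 in the authors' deposited table. Cornified envelope genes had 11 of 22 above 0 and a median of -0.03, against 0.43 in XRCC1-KO, but with 1 of 22 intervals inside 1.5-fold. Over the 15 expressed members the APE1-KO median was 0.12, so its sign depends on the scarce genes.

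Metabolic genes lay near 0. Cholesterol synthesis genes had 23 of 24 above 0 (all genes 49.5%), with a median of 0.06 (1.05-fold). All 24 intervals lay inside 1.5-fold (all expressed genes 90.6%). MSMO1 was the 1 with an unadjusted p under 0.05 (higher, as were 0.774% of all genes). The sterol desaturase gene SC5D stood at 0.12 (interval -0.03 to 0.28) in the authors' deposited table. In XRCC1-KO, over the same control libraries, this list had a median of 0.07. Fatty acid and glycerolipid genes had 15 of 26 above 0 and a median of 0.02, and ACLY, which makes cytosolic acetyl-CoA, stood at 0.12 in the deposited table. Glycolytic genes had a median of -0.02, lysosomal genes 0.00 and proteasome genes 0.01.

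Protein genes encoded in mitochondrial DNA had 12 of 13 members above 0 (all genes 49.5%) and a median of 0.05, against 0.42 in XRCC1-KO. ND6, the gene on the light strand, stood at 0.40 (interval -0.03 to 0.82, p = 0.068) and ND3, also of complex I, at 0.22 in the authors' deposited table, while COX1 of complex IV stood at 0.02. Mitochondrial DNA maintenance genes had 14 of 20 below 0 and a median of -0.05, and TOP3A, a topoisomerase, stood at -0.18 (p = 0.0571) in the authors' deposited table. Nuclear-encoded complex I had 25 of 38 above 0 with a median of 0.02, and cytosolic ribosomal proteins 24 of 37 with a median of 0.02. For both lists every interval lay inside 1.5-fold (all expressed genes 90.6%). Their XRCC1-KO medians were 0.19 and 0.15. The 16 RNA-processing partners of APE1 had a median of -0.02, and DICER1 stood at 0.17 (interval -0.26 to 0.60) in the authors' deposited table.

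**Figure D5:**
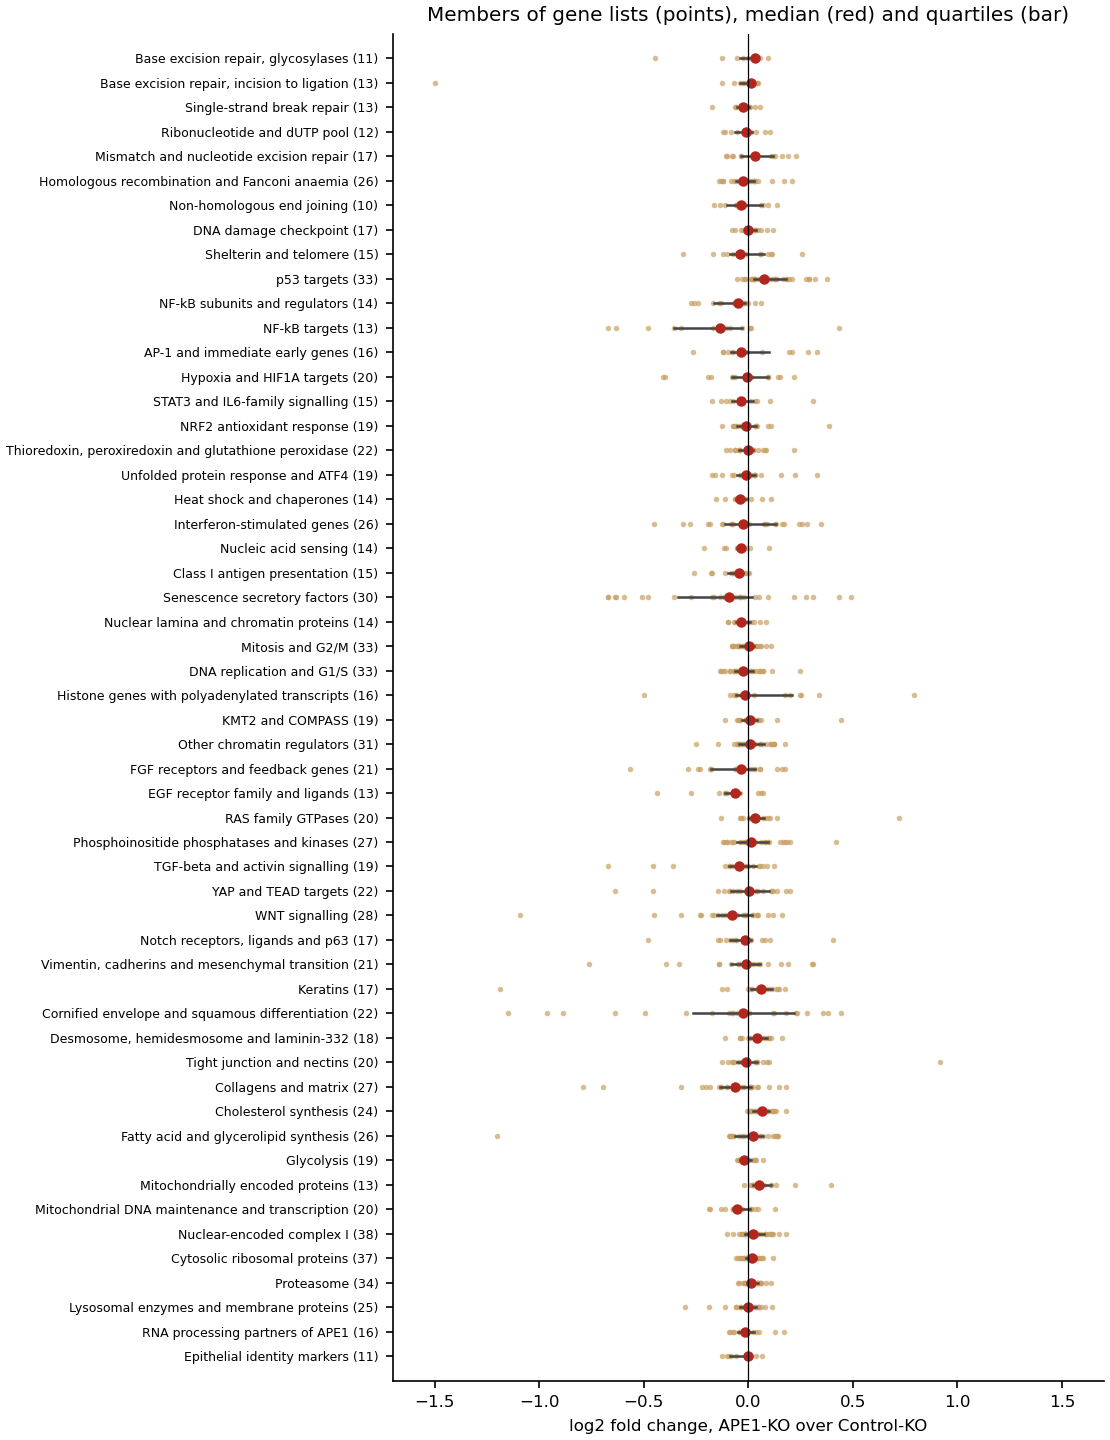
Log2 fold change of APE1-KO over Control-KO (horizontal axis) for each measured member (points) of the lists with at least 10 measured genes, with the median (red) and the quartiles (bar). In 53 of the 54 lists the median lies within 0.1 of 0, and that of NF-kB targets lies at -0.14.

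Markers of other cell types were measured in part. Of 6 leukocyte markers 3 were measured, of 6 fibroblast markers 2, of 4 endothelial markers 1, of 5 neuronal markers 3 and of 4 mature luminal markers 2. PTPRC, CD3E, PDGFRB, PECAM1 and RBFOX3, defining markers of those types, are not among the genes analysed here. Abundant among the measured ones were TUBB3, at 8.28 log2 CPM, and the luminal oestrogen receptor gene ESR1, at 6.62 log2 CPM with a log2 fold change of 0.21 (interval -0.11 to 0.52) in the authors' deposited table. ESR1 overlaps 1 gene on its own strand and 2 on the other, SYNE1 among them. The sources used here do not say whether strand was used in quantification, so the level of ESR1 is uncertain to that extent. SYT1, a synaptic vesicle protein, stood at 1.21 (interval 0.33 to 2.09, p = 0.0103) at 0.25 log2 CPM in the authors' deposited table. The microtubule protein genes MAP2 and TUBB3 stood at 0.68 (interval -0.17 to 1.54) and 0.10 there. Over all 60 lists, 24 of 1075 distinct measured genes had an unadjusted p under 0.05, beside 189 of all 13052 genes (1.45%), and in 42 lists no member did. The lists were chosen with earlier results of these data known, so these shares are not an independent comparison.

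The difference between the knockouts singled out APEX1 alone. Both comparisons use the same control libraries, which cancel in the difference of the log2 fold changes. APEX1 differed by -1.52 (interval -1.76 to -1.28, adjusted p = 7.07e-06 by a test of the difference with Benjamini-Hochberg adjustment), 1 call among 12957 genes (0.00772%). Of all 12957 genes, 97 had an unadjusted p under 0.05 for the difference. HAUS5, a subunit of the augmin complex that builds spindle microtubules, had values of -0.26 for APE1-KO and 0.25 for XRCC1-KO in the authors' deposited tables, a difference of -0.51 (interval -0.81 to -0.20, adjusted p = 0.999 by the same test). ZC3H12A, a ribonuclease that degrades inflammatory transcripts, stood at -0.15 and 0.27 in the deposited tables. LRRC8B, a volume-regulated channel subunit, stood at 0.06 and -0.62, and MED12, of the Mediator kinase module, at -0.06 and -0.51 in the authors' deposited tables.

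For genes beyond APEX1, values in the knockouts are therefore given side by side with no call of a difference. KMT2C stood at 0.44 for APE1-KO and 0.28 for XRCC1-KO in the authors' deposited tables, MRAS at 0.72 and 0.87, and INPP5D at 0.42 and 0.76. CDKN1A stood at 0.38 and 0.69, FGFR1 at -0.56 and -0.45, VIM at -0.40 and -0.29, and COL22A1 at -0.79 and -1.10 in the same deposited tables. TERF1 stood at 0.26 and 0.02, CXCL1 at -0.63 and 0.02, CXCL8 at -0.67 and -0.06, and GPAT2 at -1.20 and -0.38 in those deposited tables. The interval of the difference was -0.02 to 0.49 for TERF1 and -1.32 to 0.02 for CXCL1. For GPAT2 it was -1.49 to -0.14, with an adjusted p of 0.999 by the test of the difference with Benjamini-Hochberg adjustment.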

How the data were processed

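Poly(A) RNA of 9 MCF10A libraries was sequenced, and 6 of them, APE1-KO and Control-KO, enter this comparison. Per the submitters' processing notes, Trim Galore, Salmon 1.4.0, edgeR and hg19 were used, without stated settings. The values are the authors' own comparison tables. Per the file headers, the authors deposited for each gene a log2 fold change with a mean log2 CPM, an F score (the F statistic), a p-value, the −log10 of that p-value, and a false discovery rate. Adjusting the deposited p-values again by Benjamini-Hochberg gave the deposited rates to within 8.0e-06. The sources used here do not give filters, normalisation, the model formula or the depth per library.

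Standard errors were recovered as the absolute log2 fold change over the square root of F, or taken from the other comparison where F was under 0.01 (1390 genes). Degrees of freedom were solved from F and p, and their median of 15.2 was used for every gene's 95% interval and test of the difference. Genes whose own F and p imply fewer, GPAT2 and SLX1A among them, therefore have intervals that are too narrow. The test of the difference adds both squared standard errors, which is conservative with shared controls, and adjusts over 12957 genes. The calculation was tested on simulated data.

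The comparison, the 60 gene lists (1200 entries, 1118 measured) and the naming rule were chosen with earlier results of these data known. Named are APEX1 and XRCC1, called genes, and, among expressed genes, the 15 with the smallest p-value and the 6 with the largest estimate per direction. Genes within 500 kb of APEX1, up to 4 members per list by p-value and up to 4 genes per direction of the difference were added. Any other gene was chosen after its values were seen. Promoters came from RefSeq on GRCh38.p14, and overlaps, transcript length and GC content from GENCODE release 29. Python 3.11.15, pandas 2.3.3, numpy 2.4.6, scipy 1.17.1 and matplotlib 3.10.9 were used. Alternatives covered thresholds, the adjustment method, expressed genes alone, rescaled z values, removal of the trend on length, GC and abundance, and weighted means.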

Additional observations from a re-analysis of the deposited data

How the results depend on the processing

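APEX1 was the 1 call with an adjusted p threshold of 0.1, over expressed genes alone and with Holm adjustment, and the difference between the knockouts gave 1 call under each alternative run. With z values rescaled to their robust spread of 0.673, 23 genes passed, 13 higher and 10 lower, 15 of them expressed, and KMT2C, GPAT2, FGFR1, MRAS, INPP5D, VIM and CDKN1A were among them. That rescaling assumes that most genes did not differ. It also applied 0.673 to every gene, although the robust SD was 0.877 under 1 log2 CPM and 0.825 from 1 to 3. Scarce genes were thus rescaled more than their own spread would give. Abundant genes were rescaled less than theirs would give, with a robust SD of 0.638 from 5 to 7 and 0.559 at 7 and above. Of 202 alternatives for list and chromosome medians, 2 moved by more than the spread: the weighted mean of incision to ligation was -0.14 with APEX1 in it, and that of neuronal markers 0.21. With the trend on transcript length, GC content and abundance removed, 30 of 30 leading genes kept their direction, and none moved by more than 0.04. The fitted trend had an SD of 0.020, and these genes lay at least 0.18 from 0. A change of direction was therefore hardly possible. No paired analysis was possible because the tables hold comparisons and no values per library. For the same reason leaving out single libraries was not run. Depth is unknown, and the interval widths limit what low-abundance genes can show.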

Other observations

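Several genes under 1 log2 CPM had estimates beyond 2-fold with small unadjusted p-values. KCNN3, a calcium-activated potassium channel, had the second smallest p-value of the authors' deposited table, at -2.29 (p = 2.18e-04) and -1.37 log2 CPM. BAIAP3, a protein of dense-core vesicle traffic, stood at -1.47, PDE2A, a cyclic nucleotide phosphodiesterase, at -1.62, and BST1, an ectoenzyme of NAD metabolism, at -1.05 in the deposited table. ARSG, a lysosomal sulfatase, stood at 1.59, and ITIH5, a hyaluronan-binding protein, at 1.02 in the authors' deposited table. They were picked once their values had been seen, and their adjusted p in the deposited table was 1.

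Chromosome medians of expressed genes ran from -0.02 on chromosome 19 to 0.01 on chromosome 13 over 23 nuclear chromosomes.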
